A study of Homo sapiens with 30 samples.

Results

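The 9 non-coding RNA genes, RN7SL1, RN7SL2, RN7SK, RMRP, RPPH1, VTRNA1-1, RNY1, RNY3 and RNY4, were followed through an iCLIP study of the RNA-binding protein LARP6. They are 9 of the 62750 genes in the input count files and were chosen by name as the 7SL, 7SK, RNase, vault and Y RNAs. U-87 MG, an established human glioblastoma line, carried doxycycline-inducible myc-tagged LARP6, either full-length (FL) or without the N-terminal region (ΔNTR), the C-terminal region (ΔCTR), the La-module (ΔLa-module) or the whole N-terminal domain (ΔNTD). The 5 LARP6 lines were made by lentiviral transduction and puromycin selection, with no statement that any of them is a single clone, and no depletion of the cells' own LARP6 is stated for these samples. Parental cells served as the negative control, and 60 ng/mL doxycycline for 24 h is given in the labels for every sample, parental included. iCLIP was run in 3 replicates for each of the 6 lines, 18 samples in all, and was deposited as 5 pooled peak lists, 1 per variant. Input RNA of each line was sequenced as 1 paired-end library of long RNA (PE150) and 1 single-end library of small RNA (SE50), 12 libraries in all. Of the glial and mesenchymal markers, VIM, CD44, EGFR and NES were abundant in all 6 PE150 libraries, while GFAP had 0 to 6 counts, S100B 0 to 3 and SOX2 0 to 1, so that these 3 astrocytic markers were at or near 0. The glial marker OLIG2 had 41 to 70 counts.

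These RNAs are transcribed by RNA polymerase III and work as the cores of ribonucleoprotein particles. 7SL is the scaffold of the signal recognition particle, which brings ribosomes that make secreted proteins to the endoplasmic reticulum. 7SK holds the transcription elongation kinase P-TEFb in an inactive particle, RMRP and RPPH1 are the RNA subunits of RNase MRP and RNase P, which process pre-rRNA and pre-tRNA, vault RNAs sit in the vault particle, and Y RNAs are bound by RO60. Newly made polymerase III transcripts end in a run of uridines, which the La protein SSB binds through a La-module, the same kind of domain that LARP6 carries.

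Because the results turn on where LARP6 peaks lie within short and repeated sequences, RNAs with a FL peak at or near the 5′ end are shown first, with VTRNA1-1 beside its relative VTRNA1-3. All sequences were read from the reference genome (GRCh38), 5′ to 3′ along the RNA and written as DNA, and capitals mark the nucleotides inside a FL peak.
RMRP (chr9:35657754-35658017, minus strand): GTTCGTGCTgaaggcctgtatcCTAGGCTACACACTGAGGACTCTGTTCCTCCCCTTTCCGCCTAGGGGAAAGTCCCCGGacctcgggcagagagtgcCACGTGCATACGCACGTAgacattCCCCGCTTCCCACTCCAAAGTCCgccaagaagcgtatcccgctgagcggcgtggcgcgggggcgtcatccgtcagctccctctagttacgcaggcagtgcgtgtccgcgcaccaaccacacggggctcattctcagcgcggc
RNY1 (chr7:148987136-148987248, minus strand): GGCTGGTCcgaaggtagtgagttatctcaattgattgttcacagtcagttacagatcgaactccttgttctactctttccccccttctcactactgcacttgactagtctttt
RNY4 (chr7:148963315-148963410, plus strand): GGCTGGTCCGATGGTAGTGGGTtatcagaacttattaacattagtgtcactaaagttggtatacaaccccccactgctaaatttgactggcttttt
VTRNA1-1 (chr5:140711275-140711373, plus strand): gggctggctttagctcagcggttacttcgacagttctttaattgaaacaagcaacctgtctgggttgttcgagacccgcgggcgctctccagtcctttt
VTRNA1-3 (chr5:140726158-140726246, plus strand): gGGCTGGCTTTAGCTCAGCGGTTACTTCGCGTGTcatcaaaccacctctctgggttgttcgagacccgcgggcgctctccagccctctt

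The FL peaks on the 3 Y RNAs and 1 of the 4 on RMRP reached the annotated 5′ end, whereas the peak on RN7SL1 (chr14:49586580-49586878, plus strand) lay in the 3′ part of the RNA and ended 38 nt before its last nucleotide. The 3 Y RNAs share their first 11 nt, and each ends in a run of 4 or 5 thymidines. VTRNA1-1 and VTRNA1-3 are identical over their first 29 nt, yet only VTRNA1-3 had a FL peak.

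Of the 9 genes, 6 had a count above 0 in at least 1 input library. Gene counts totalled 25027075 to 28692476 per PE150 library and 6181270 to 10307756 per SE50 library. The 9 genes together took 0.946 to 1.37% of the PE150 counts and 0.0403 to 0.0861% of the SE50 counts. Reads over more than 1 gene, which STAR leaves uncounted, made up 4.01 to 4.19% of PE150 and 40.4 to 54.0% of SE50 reads. Reads with several placements, also left uncounted, made up 5.69 to 6.59% of PE150 and 13.6 to 18.5% of SE50 reads. With 1 library per line and protocol there is no replicate spread, so no test was possible, and every interval below is a 95% interval for counting error only.

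Of the members with any count, RN7SL1 had the most in long RNA. Its PE150 counts were 250837 for parental cells, 280186 with FL, 325879 with ΔNTR, 294913 with ΔCTR, 300448 with ΔLa-module and 251623 with ΔNTD. After TMM scaling, which sets the libraries to a common scale, its level was lowest in ΔNTD, at 9145 CPM (counts scaled to library size), and highest in ΔNTR, at 13049 CPM. Each step in that order (ΔNTD, parental, FL, ΔLa-module, ΔCTR, ΔNTR) exceeded counting error, which is very small at such counts. The smallest step, from ΔNTD to parental, was 1.02-fold. Counted without regard to strand, the ratio of ΔNTD to parental was 0.997. The SE50 libraries held few RN7SL1 reads, with 39 for parental cells, 35 with FL, 44 with ΔNTR, 48 with ΔCTR, 35 with ΔLa-module and 110 with ΔNTD. By scaled SE50 level the order was parental, FL, ΔLa-module, ΔNTR, ΔCTR and ΔNTD. Only the ΔNTD library stood above its neighbour in this order by more than counting error. RN7SL1 lies opposite the ribosomal protein gene RPS29, and 5.10% of its PE150 reads fell on the other strand, against 9.76% over all genes.

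RMRP was the only other member with more than 10 counts in PE150. Its counts were 14292 for parental cells, 15471 with FL, 17789 with ΔNTR, 15843 with ΔCTR, 19900 with ΔLa-module and 11390 with ΔNTD. In SE50 they were 3075, 2173, 2032, 2118, 1959 and 5112 in the same order of lines. The ΔNTD library thus had the lowest RMRP level of the 6 lines in PE150 (414 CPM) and the highest in SE50 (467 CPM).

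Y and vault RNAs were counted almost only in the small RNA libraries. RNY1 had 613 SE50 counts in parental cells, 1159 with FL, 1357 with ΔNTR, 1046 with ΔCTR, 1489 with ΔLa-module and 2193 with ΔNTD. All 5 LARP6 lines lay above the parental library, and in PE150 the gene had 0 to 4 counts. RNY3 (chr7:148983755-148983856, plus strand) had 181, 135, 133, 108, 94 and 230 SE50 counts in the same order, and no 2 neighbours among the scaled levels differed beyond counting error. Lines further apart could differ: ΔLa-module was below parental beyond counting error (ratio 0.755, 0.581 to 0.972). VTRNA1-1 had 311, 173, 243, 223, 215 and 385 SE50 counts, and its scaled level in FL (22.7 CPM) was below that of every other line. RNY4 had at most 2 counts in any of the 12 libraries.

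Per kilobase of gene, the median PE150 level of RN7SL1 over the 6 lines was 34244 CPM per kb against 2152 for RMRP. In SE50 the order was RNY1 (1501 CPM per kb), RMRP (1107), VTRNA1-1 (324), RNY3 (177) and RN7SL1 (18.9). Reads with several placements are not in these counts. How much each gene loses in this way was not tested, so the order is one of counts.

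**Figure D1:**
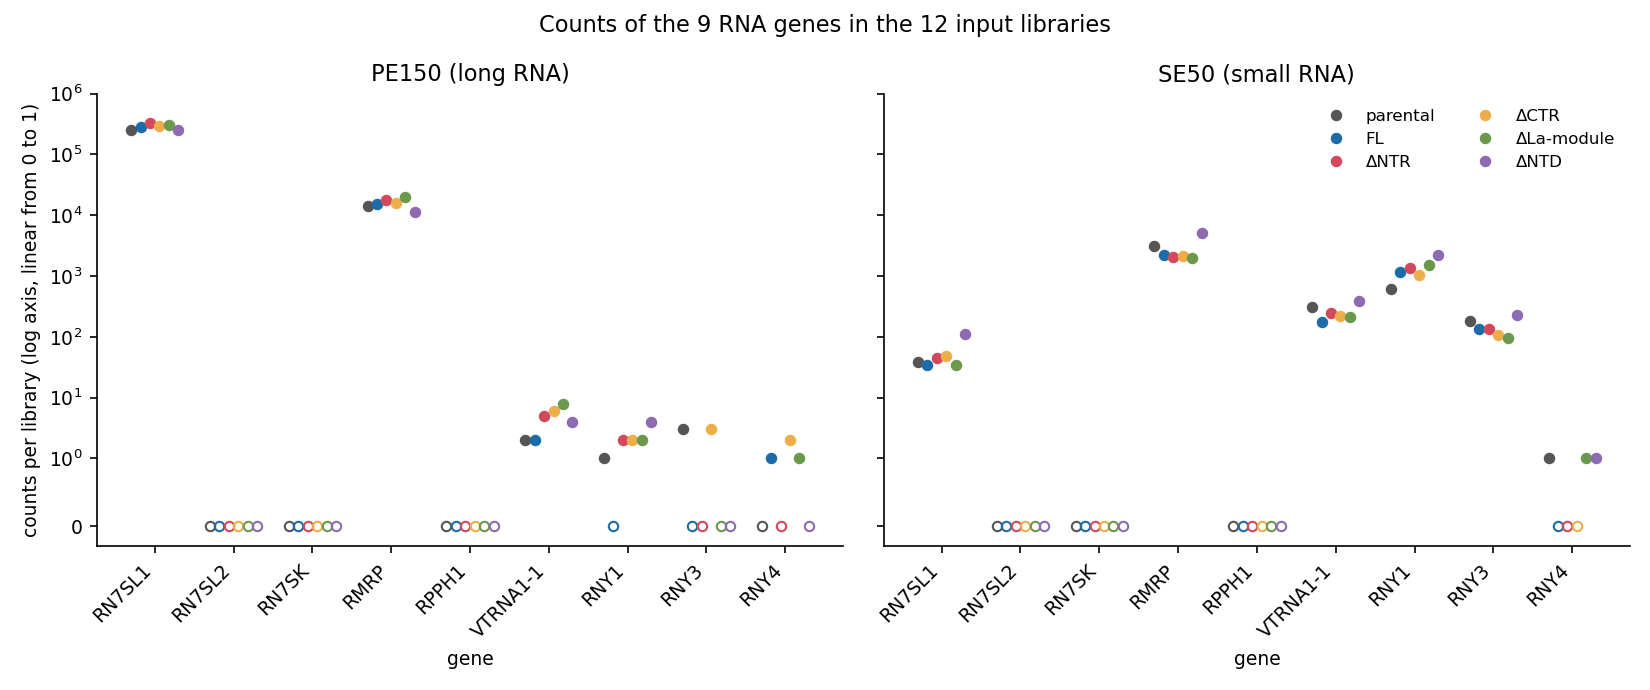
Counts of each of the 9 genes (x axis) in the 6 lines (colours), for PE150 on the left and SE50 on the right, on a log axis that is linear below 1; open circles are counts of 0. RN7SL1 and RMRP lead in PE150, RNY1, RMRP, VTRNA1-1 and RNY3 are seen in SE50, and RN7SL2, RN7SK and RPPH1 are at 0 in all 12 libraries.

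RN7SL2 (chr14:49862550-49862849, minus strand), RN7SK (chr6:52995621-52995948, plus strand) and RPPH1 (chr14:20343075-20343407, minus strand) were listed at 0 in all 12 libraries. In the annotation, every exon base of these 3 genes is shared with a second gene on the same strand: a lncRNA gene (ENSG00000282885) over RN7SL2, a second 7SK entry (ENSG00000202198) over RN7SK, and a lncRNA gene (ENSG00000259001) over RPPH1. STAR's gene counting sets aside reads that overlap exons of more than 1 gene. Of the 1725 genes that share all their exon bases in this way, 1723 (99.9%) were at 0 in all 12 libraries, against 22789 of 54180 genes (42.1%) that share none. The count files therefore give no level for 7SK, RNase P RNA or the RN7SL2 copy of 7SL.

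RNY1 was higher in every LARP6 line than in parental cells, by 2.29-fold to 3.52-fold, and was the member that varied most. A gene was called when its TMM-scaled ratio to the parental library was at least 1.5-fold either way and the counting interval left out 1, among genes with at least 10 counts in either library. The RNY1 ratio was 2.41 with FL (interval 2.18 to 2.66), 2.96 with ΔNTR (2.69 to 3.27), 2.29 with ΔCTR (2.07 to 2.53), 3.52 with ΔLa-module (3.20 to 3.88) and 3.18 with ΔNTD (2.90 to 3.48). The 5 ratios share the same parental library, so they are not 5 separate comparisons. In bulk RNA, fewer cells with the transcript and less of it per cell cannot be told apart. RN7SL1 was also called higher in SE50, in ΔCTR (1.65, 1.06 to 2.58) and ΔNTD (2.48, 1.72 to 3.71).

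In SE50, 5 of the 9 genes had enough counts, and 1 was called in FL, 1 with ΔNTR, 2 with ΔCTR, 1 with ΔLa-module and 2 with ΔNTD, all of them higher. Over all SE50 genes tested, the same rule called 17.1% with FL, 15.4% with ΔNTR, 14.4% with ΔCTR, 18.5% with ΔLa-module and 15.7% with ΔNTD. The median ratio of the 5 genes lay between 0.952 (FL) and 1.48 (ΔNTD) over the lines, against 0.85 (ΔLa-module) to 1.03 (ΔNTD) for all SE50 genes tested. The range of RNY1, the ratio of its highest to its lowest line, was 3.52, which lay at percentile 95.6 of the 227 genes with at least 100 counts in every SE50 library. The median range of those genes was 1.78, and RMRP (1.67) and VTRNA1-1 (1.55) lay below it.

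RMRP and VTRNA1-1 were not called in any line in SE50. The RMRP ratio was 0.885 to 0.924 for FL, ΔNTR, ΔCTR and ΔLa-module and 1.48 (1.41 to 1.54) for ΔNTD. The VTRNA1-1 ratio was 0.71 (0.586 to 0.857) for FL and 0.962 to 1.1 in the other lines. Scaled by total counts the RMRP ratio in ΔNTD was 1.84 and the VTRNA1-1 ratio in FL 0.63, and both then passed the rule. By the same scaling the RMRP ratio was above 1 in ΔNTR (1.02) and ΔCTR (1.15), and that of VTRNA1-1 was 1.20 in ΔCTR and 0.908 in ΔLa-module, so these directions depend on the scaling. RNY3 ratios ran from 0.755 (ΔLa-module, 0.581 to 0.972) to 1.13 (ΔNTD), and none was called. In ΔNTR the RNY3 ratio was 0.985, and 1.13 by total counts.

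In PE150, neither of the 2 genes with enough counts was called in any line. Over all PE150 genes the rule called 5.67% with FL, 9.97% with ΔNTR, 6.23% with ΔCTR, 8.36% with ΔLa-module and 8.09% with ΔNTD. RN7SL1 ratios were 1.07 with FL, 1.39 with ΔNTR, 1.16 with ΔCTR, 1.12 with ΔLa-module and 0.977 with ΔNTD. RMRP ratios were 1.03, 1.34, 1.1, 1.30 and 0.776 in the same order. In ΔNTD the RMRP ratio was thus below 1 in PE150 and above 1 in SE50, and in both protocols its counting interval left out 1. Across the 6 lines, RN7SL1 ranged over 1.43-fold (percentile 88.6 of 10910 genes) and RMRP over 1.72-fold (percentile 97.5), against a median of 1.21.

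Of the other genes, the PE150 pattern of RN7SL1 over the 6 lines was most like that of LSM14B (Pearson's r = 0.996 on log2 scaled levels), followed by TNK2 (0.991) and ZNF518B (0.99), among 10909 genes. The SE50 pattern of RMRP was most like those of SNORD83A (0.933), MT-TF (0.91) and SNORD6 (0.893), among 226 genes. These are descriptions over 6 libraries, chosen as the highest of many, and all the points share the same libraries.

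LARP6 peaks were found on 5 of the 9 genes: RN7SL1, RMRP, RNY1, RNY3 and RNY4. In FL, where all 5 had a peak, 4892 genes had one, and the count files list 62750 genes. A peak counted when it overlapped the gene on the same strand by at least 1 nt, and its score is the authors' sum over the replicates. The lists hold only scores of 3 or more, and places with a peak in parental cells were removed, so a gene without a listed peak may still have had fewer crosslinks or a subtracted peak. FL had 8 member peaks of 14334 in its list, ΔNTR 6 of 17180, ΔCTR 8 of 15870, ΔLa-module 6 of 636 and ΔNTD 5 of 291. RN7SL2, RN7SK, RPPH1 and VTRNA1-1 had none in any list. The peaks held 0.533% of the summed score in FL (0.49 to 0.58%), 0.466% with ΔNTR, 0.541% with ΔCTR, 1.51% with ΔLa-module (1.05 to 2.09%) and 2.80% with ΔNTD (1.87 to 4.03%). The depth of the iCLIP libraries is unknown here, and intervals treat the scores as counts. The study's authors report no RNA binding in cells for ΔLa-module and ΔNTD and left both out of their later analyses. Whether the peaks in those lists are background was not tested.

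RN7SL1 carried the highest member peak in the FL, ΔNTR and ΔCTR lists, and each variant had 1 peak at the same site. In FL the peak covered nt 205 to 261 of the 299 nt RNA (chr14:49586784-49586840) with a score of 350, which ranked 5 in its list. The ΔNTR peak (nt 208 to 261) had a score of 214 and also ranked 5, and the ΔCTR peak (nt 204 to 260) had 504 and ranked 4. The ΔLa-module peak was narrower (nt 233 to 259) with a score of 4, and the ΔNTD peak (nt 243 to 259) had 3. As a share of the list's score, RN7SL1 held 0.341% with FL (0.306 to 0.378%), 0.23% with ΔNTR (0.20 to 0.263%), 0.424% with ΔCTR (0.388 to 0.463%), 0.172% with ΔLa-module (0.047 to 0.441%) and 0.30% with ΔNTD (0.062 to 0.875%). The FL, ΔNTR and ΔCTR intervals hold counting error only, which is small at such scores. Neither variant's share was 1.5-fold from that of FL, a rule that called 26.8% of all genes compared for ΔNTR and 20.4% for ΔCTR (below). The intervals of the last 2 lists, which have small totals, were wide.

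The study's authors scale a peak by its input, as score per 1000 gene counts. On that scale, with the PE150 counts, RN7SL1 had 1.25 with FL, 0.657 with ΔNTR, 1.71 with ΔCTR, 0.0133 with ΔLa-module and 0.0119 with ΔNTD. RMRP had 9.70, 11.9, 5.49, 1.36 and 1.93 in the same order. In raw score RN7SL1 was higher than RMRP in FL. The PE150 counts leave out reads with several placements, so the scaled scores can be compared between lines but not between these genes.

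RMRP had 4 peaks in FL, with scores of 40 across the 5′ end, 73 at nt 23 to 80, 15 at nt 99 to 116 and 22 at nt 123 to 145. ΔNTR had peaks at the same 4 places, with scores of 64, 114, 7 and 27, and ΔCTR too, with 18, 53, 7 and 9. The highest of them, at nt 35 to 77 for ΔNTR, ranked 15 in its list, against 104 for its FL counterpart and 211 for that of ΔCTR. In ΔLa-module the scores were 3 at the 5′ end, 15 at nt 31 to 89, 4 at nt 129 to 146 and 5 at nt 151 to 174. In ΔNTD the highest RMRP peak, with a score of 15, lay at nt 179 to 213, where no other list had one, and the others had 3 at the 5′ end and 4 at nt 29 to 64.

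Summed over its peaks, RMRP had a score of 150 with FL, 212 with ΔNTR, 87 with ΔCTR, 27 with ΔLa-module and 22 with ΔNTD. Its share of the list was 0.146% with FL (0.124 to 0.171%), 0.228% with ΔNTR (0.198 to 0.261%), 0.0733% with ΔCTR (0.0587 to 0.0904%), 1.16% with ΔLa-module (0.768 to 1.69%) and 2.20% with ΔNTD (1.39 to 3.32%). By summed score RMRP ranked 101 of 4892 genes in FL, 51 of 4983 with ΔNTR and 271 of 5239 with ΔCTR, but 5 of 496 with ΔLa-module and 2 of 266 with ΔNTD. Its raw score was lowest, and its share highest, in the 2 lists without the La-module. The whole score of those lists was 2320 for ΔLa-module and 999 for ΔNTD, against 102788 for FL, so a few crosslinks make a large share there.

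The Y RNA peaks all lay across the 5′ end of the RNA, and none reached its 3′ uridine run. RNY1 had a peak with a score of 19 for FL, 21 for ΔCTR and 3 for ΔNTD, and none in ΔNTR or ΔLa-module. RNY3 had 19 with FL, 7 with ΔNTR, 7 with ΔCTR and 4 with ΔLa-module, and RNY4 had 10 with FL and 24 with ΔCTR. The FL peaks began 10 to 11 nt before the annotated start and ended at nt 8 of RNY1, nt 7 of RNY3 and nt 22 of RNY4. The RMRP peak at the 5′ end likewise began 12 nt before the gene in FL. The authors called peaks with a rolling mean of the crosslinks, so a peak's edges need not be crosslinked positions. An iCLIP cDNA starts next to the crosslinked base, or at the 5′ end of the fragment where no crosslink stopped the enzyme, and the peak lists do not tell these apart. Over the 5 lists, the member peak nearest to a 3′ end stopped 38 to 40 nt short of it, and this was the RN7SL1 peak in each list. Because a cDNA starts next to the crosslink, a crosslink near the 3′ end leaves little sequence to align. The lists therefore cannot show whether LARP6 binds the uridine run or the nucleotides next to it.

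Set against SE50 input, RNY1 had a score of 16.4 per 1000 counts in FL, 20.1 with ΔCTR and 1.37 with ΔNTD. RNY3 had 141 with FL, 52.6 with ΔNTR, 64.8 with ΔCTR and 42.6 with ΔLa-module. RNY4 had too few input counts for a ratio. The input counts leave out reads with several placements, so these scaled scores cannot be compared between genes.

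Between FL and the variants of like list size, RMRP lay on opposite sides of FL: its share of the list was 1.56 times that of FL in ΔNTR (1.26 to 1.94) and 0.503 times in ΔCTR (0.381 to 0.658). For this comparison, chosen after the scores were seen, genes with a peak in both lists and a summed score of at least 10 were called by the same 1.5-fold rule. RMRP was the only 1 of 3 members with enough score called in ΔNTR, and RMRP and RNY3 (0.333, 0.113 to 0.792) were 2 of 5 called in ΔCTR. Over all such genes the rule called 26.8% for ΔNTR and 20.4% for ΔCTR. The share ratio takes no account of input. Per 1000 PE150 counts, RMRP had 9.70 with FL, 11.9 with ΔNTR and 5.49 with ΔCTR. RN7SL1 had 1.25, 0.657 and 1.71 in the same order. The rule was not applied on that scale, so the calls hold for list shares only. Without scaling to the list totals, the RMRP ratio in ΔNTR was 1.41 (1.14 to 1.75) and was no longer called. RN7SL1 had a share ratio of 0.677 (0.568 to 0.804) for ΔNTR and 1.25 (1.09 to 1.43) for ΔCTR, both short of 1.5-fold with an interval that left out 1. RNY1 (0.954, 0.49 to 1.88) and RNY4 (2.02, 0.958 to 4.87) for ΔCTR had intervals that held 1, and without that scaling RNY4 was called (2.33, 1.11 to 5.62).

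How far a short read can be placed on these genes differs widely, which bears on the input counts as well as on the peaks. Over RN7SL1, 0 of its 270 windows of 30 nt occur only once in the genome, and the median window has 8 exact copies. Windows that start inside the FL peak have 2 to 236 copies. RN7SL2 is identical to RN7SL1 at 295 of 300 aligned positions and RN7SL3 at 292 of 299. Of the 235 RMRP windows, 233 occur once, and so do all 304 of RPPH1 and 62 of 70 of VTRNA1-1. By contrast 3 of 84 windows of RNY1, 0 of 73 of RNY3 and 0 of 67 of RNY4 occur once, and RN7SK has 28 of 299. How the authors treated iCLIP reads with several placements is not given in the sources used here, and whether the RN7SL1 and Y RNA peaks hold reads of other copies was not tested. Of the windows that start inside an RMRP peak, at least 94.4% occur once in every peak, and of the 8 inside the FL peak of RNY1 3 do.

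RN7SL3, the third 7SL gene, had 45398 to 58511 PE150 counts and 4 FL peaks, of which only the lowest lay where RN7SL1 had its peak. In FL these had scores of 36 across the 5′ end, 122 at nt 28 to 46, 57 at nt 90 to 117 and 7 at nt 204 to 224. In ΔNTR they had 37, 64, 48 and 4, and in ΔCTR 50, 88, 73 and 8. ΔNTD had 3 and 4 at the first 2 of these places, and ΔLa-module had none. Of the RN7SL3 windows, 59 of 270 occur once in the genome.

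Among the vault RNAs, VTRNA1-3 carried the peaks, although it had only 5 to 18 SE50 counts. Its peak at nt 2 to 34 had a score of 94 for FL and 152 for ΔCTR, the ΔNTR peak at nt 7 to 45 had 58, and ΔNTD had 3. VTRNA1-2, with 399 to 799 SE50 counts, had a single peak, with a score of 4 for ΔLa-module, and VTRNA1-1 had none. VTRNA2-1 had 232 to 373 SE50 counts and no peak, and was called lower in ΔNTD (0.61, 0.518 to 0.717). Of its 128 nt, 101 are shared with another vault RNA gene on the same strand, and reads over those are left uncounted, so its counts rest on few positions. BCYRN1, a 7SL-derived RNA of neurons, had 124 to 183 PE150 counts and no peak.

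Of the annotated pseudogenes, the 677 of 7SL summed to 1189 to 1422 PE150 counts per library, the 293 of 7SK to 359 to 476, and the 53 of Y RNAs to 63 to 105. In SE50 the 53 Y pseudogenes summed to 130 to 226. A gene named only Y_RNA (ENSG00000222649, chr6:119057880-119057974, plus strand), singled out after its values were seen, held 94.8% of the SE50 counts of the 756 genes of that name. It had 23834 SE50 counts in parental cells, 16088 with FL, 10004 with ΔNTR, 13164 with ΔCTR, 12360 with ΔLa-module and 16250 with ΔNTD. It was called lower in ΔNTR (ratio 0.562) and ΔNTD (0.605), the opposite direction to RNY1. Its sequence matches RNY4 at 81 of 97 aligned positions and RNY1 at 67 of 115.

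Peaks outside the 9 genes also held 7SL sequence, nearly always in the sense direction. An exact run of at least 16 nt of RN7SL1 or RN7SL2 was found in 18 such peaks in FL, 12 with ΔNTR, 28 with ΔCTR, 0 with ΔLa-module and 3 with ΔNTD. The reverse complement, searched in the same way, was matched by 0, 1, 3, 0 and 0 peaks. Of the sense matches, 12 of 18 for FL, 8 of 12 for ΔNTR and 17 of 28 for ΔCTR lay in 7SL genes or pseudogenes. The highest outside RN7SL3 for FL were an intronic peak of FBXW7 (chr4:152400587-152400618, score 54), which holds nt 43 to 59 of RN7SL2, and a peak on the pseudogene RN7SL702P (score 50). In ΔCTR the same places had scores of 64 and 45. In ΔNTR the highest were an exonic peak of YWHAB (chr20:44907391-44907443, score 27) and RN7SL702P (25). Peaks with Y RNA sequence numbered 4 for FL, 2 for ΔNTR and 4 for ΔCTR, with summed scores of 26, 8 and 14. A single peak with 7SK sequence was found in each of FL, ΔNTR and ΔCTR, on a 7SK pseudogene and with a score of 3 or 4, and no peak outside the genes matched RMRP or RPPH1.

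No protein gene of these particles was called in the input. The list held 28 genes for the signal recognition, 7SK, RNase P and MRP, vault and Y RNA particles. Of these, 27 had enough counts in PE150 and 0 were called in any line, against 5.67 to 9.97% of all genes tested. Their ratios to parental cells ran from 0.755 (SRP19 for ΔNTR) to 1.42 (RPP25 for ΔNTD), and the median was 0.925 to 0.98 over the 5 lines, against 0.992 to 0.999 for all genes tested. RO60, which binds Y RNAs and had 4118 to 5619 PE150 counts, had ratios of 1.12 with FL, 1.19 with ΔNTR, 1.24 with ΔCTR, 1.14 with ΔLa-module and 1.33 with ΔNTD. SRP72 (signal recognition particle) lay between 0.896 and 1.08, CCNT1 (P-TEFb cyclin) between 0.88 and 0.963, RPP30 (RNase P and MRP) between 0.844 and 1.02, and MVP, the major vault protein, between 0.903 and 1.05. LARP6 peaks lay on 10 of the 28 genes in FL, 12 with ΔNTR, 14 with ΔCTR, 1 with ΔLa-module and 2 with ΔNTD. Over all genes, 4892, 4983, 5239, 496 and 266 had a peak in the same order. The count files list 62750 genes, of which 18348 had enough PE150 counts for the FL comparison. The share with a peak among genes of like abundance was not tested. The summed scores of the 28 genes were 86, 76, 142, 3 and 6, and the highest in FL was SRP9, a 7SL-binding protein, with 26.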

How the data were processed

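iCLIP was done with an anti-myc antibody in 18 samples, and input RNA of the 6 lines was sequenced in 12 libraries. The deposited peak score is, per the study's methods, the sum of Clippy scores over replicates, with parental peaks subtracted with bedtools 2.30.0. Before peak calling, reads matching rRNA or tRNA were removed with Bowtie2, the rest were aligned to GRCh38.p13 with STAR, and UMI-tools removed duplicates. The deposited counts per gene came from STAR 2.7.10b after trimming with Trim Galore 0.6.10, without normalization by the authors. Column 4 was used for PE150 and column 3 for SE50. Gene models were GENCODE v44, and 62625 of 62750 identifiers matched.

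TMM factors came from edgeR 4.0.16 and were used for scaling only, with 0.5 counts added for ratios and exact conditional binomial intervals. Samples were grouped by their labels, and peak lists by variant. Alternatives were DESeq2 1.42.0 size factors, total counts, other filters, folds and matching rules. Scripts were tested on simulated data. All 9 genes are named. Of each list, the genes called and the most abundant are named. The genes and lists were chosen with earlier results of these data known. The sequences of RN7SL1 and RNY3 are not reported here.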

Additional observations from a re-analysis of the deposited data

How the results depend on the processing

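No paired analysis was possible because each line has 1 input library per protocol and the peak lists are pooled, and no replicate could be left out for the same reason. The number of calls in PE150 was 0 under every alternative. The 7 calls in SE50 numbered 6 to 10 under the alternatives. Total counts moved the median SE50 ratio of all genes by -0.17 to 0.32 on the log2 scale. Requiring 50% of the peak inside the gene left 5 member peaks in FL, and a score above 3 left 2 in ΔNTD. A run of 20 nt left 7 FL, 4 ΔNTR and 16 ΔCTR peaks elsewhere with 7SL sequence, and a run of 14 nt gave 20 in ΔNTR. Without scaling to the list totals, an alternative chosen after seeing the data, 2 members were called against FL in ΔNTR, RN7SL1 (0.612) and RNY3 (0.385), in place of RMRP. At a fold of 2 the SE50 call of RN7SL1 in ΔCTR was lost. No called ratio changed direction in the alternatives run. Uncalled SE50 ratios near 1 did cross it: by total counts RMRP went to 1.02 in ΔNTR and 1.15 in ΔCTR, VTRNA1-1 to 1.20 in ΔCTR and 0.908 in ΔLa-module, and RNY3 to 1.13 in ΔNTR, and without MIR100 RNY3 went to 1.05 in FL. The RNY1 score share in ΔCTR went to 1.1 without list scaling. Peaks with scores of 3 to 5, which make up most of the ΔLa-module and ΔNTD peaks on these genes, rest on few crosslinks.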
